A study of Mus musculus with 20 samples.

Results

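The liver RNA of 10 genes for proteins of the lipid droplet was examined: the perilipins Plin2, Plin3, Plin4 and Plin5, the CIDE proteins Cidea, Cideb and Cidec, the lipase Pnpla2, its inhibitor G0s2, and Pnpla3. They were chosen by symbol from the 55487 genes of the count table, of which 21936 are protein coding, and all 10 were found. Of these, 9 had enough counts to be tested between groups, and Cidea did not.

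Lipid droplets are the stores of triglyceride and cholesteryl ester inside cells, and hepatocytes fill with them when fat supply exceeds its oxidation and export. Perilipins coat the droplet surface and limit the access of lipases, CIDE proteins join droplets together or load lipid onto lipoproteins, and the lipase encoded by Pnpla2 (ATGL) starts triglyceride breakdown, which the protein encoded by G0s2 blocks. Pnpla3 encodes a related droplet protein whose RNA is known to follow carbohydrate feeding and SREBP-1c, and several perilipin and CIDE genes are known targets of the PPAR receptors.

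Female C57BL/6J mice, 8 weeks old at the start, were fed chow or a high-fat diet (HFD). The HFD-fed mice then received, for 10 weeks, HFDs that took part of their protein from beef, from salmon filet or from a fishmeal made of what is left of the salmon. The livers were taken at 28 weeks of age, and 1 library was sequenced from each of 20 mice. By the labels there were 5 mice on chow, 5 on HFD with fishmeal, 6 on HFD with salmon and 4 on HFD with beef. Mouse 31 is labelled as fed salmon, but its column in the count table is named as beef, so that the columns give 5 mice in each group. The paper describes groups of equal size for sequencing, which the columns give and the labels do not. The other mice labelled salmon are numbered 22 to 27 and those labelled beef 32 to 40, so that mouse 31 lies next to the beef numbers. Both points go with the column name. Values nevertheless follow the labels, so that the main salmon and beef values rest on the less supported grouping. The value of mouse 31 or the salmon median by column name is given where levels of single mice are listed, edgeR was run again with mouse 31 counted as beef, and DESeq2 was run by the labels alone. The labels name no altered allele and no drug, and no sequenced group stayed on a HFD without one of these protein sources.

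Between 42526234 and 70266136 counts fell on genes in each library, and 93.2% to 95.6% of them on protein coding genes apart from 84.3% in mouse 35 on beef. The 7 hepatocyte marker genes summed to between 86700 and 119000 CPM (counts scaled to a common library size with TMM factors) in the 20 libraries. Of 8 adipocyte markers, Lep had no count in any library and Fabp4 alone had a mean over 1 CPM, with 265 to 899 counts in a library. In whole liver, fewer cells of a type and less RNA per cell cannot be told apart.

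The 10 genes lie on 8 chromosomes. Plin4 (chr17:56100591-56109803, GRCm38, minus strand) and Plin5 (chr17:56111601-56117596, minus strand) are 1797 bases apart, and Plin3 (chr17:56277476-56292873, minus strand) lies 159879 bases from Plin5. Plin2 is at chr4:86648386-86670060 and Cidec at chr6:113424634-113435760, both on the minus strand. Pnpla2 is at chr7:141455198-141460743 and Pnpla3 at chr15:84167837-84187236, both on the plus strand, and G0s2 is at chr1:193272161-193273217 on the minus strand. Of the exon bases of Cideb (chr14:55754050-55758458, minus strand), 76.3% are also exon of Nop9 on the opposite strand, and the strand setting used for counting is not given in the sources used here. Reads of these genes cannot be told apart without strand. Plin2 shares a stretch of 416 bases with the pseudogene Gm12551 at 90.1% identity, so that its counts could be divided between them.

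The 250 bases before the transcription start site, from RefSeq on GRCm38.p6, are shown for Plin3 and Pnpla2 and for Plin5 and G0s2, whose RNA varied together between mice, and for Pnpla3, the gene with the largest differences between protein sources. Each is written 5′ to 3′ on the strand of the gene and ends at the base before the start site. Capitals mark a match on either strand to the GC box (GGGCGG), the CCAAT box (CCAAT) or the nuclear receptor half-site (AGGTCA).
Plin3, chr17:56290512-56290761, strand -: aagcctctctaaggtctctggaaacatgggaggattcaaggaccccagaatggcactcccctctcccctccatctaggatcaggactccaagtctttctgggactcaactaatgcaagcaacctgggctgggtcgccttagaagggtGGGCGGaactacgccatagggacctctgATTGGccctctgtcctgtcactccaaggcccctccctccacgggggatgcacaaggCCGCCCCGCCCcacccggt
Pnpla2, chr7:141454938-141455187, strand +: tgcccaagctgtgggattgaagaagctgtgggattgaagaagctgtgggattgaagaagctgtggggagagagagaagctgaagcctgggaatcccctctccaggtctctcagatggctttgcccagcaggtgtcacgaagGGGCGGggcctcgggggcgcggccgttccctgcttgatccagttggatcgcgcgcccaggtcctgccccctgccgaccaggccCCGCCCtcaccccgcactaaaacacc
Plin5, chr17:56117549-56117798, strand -: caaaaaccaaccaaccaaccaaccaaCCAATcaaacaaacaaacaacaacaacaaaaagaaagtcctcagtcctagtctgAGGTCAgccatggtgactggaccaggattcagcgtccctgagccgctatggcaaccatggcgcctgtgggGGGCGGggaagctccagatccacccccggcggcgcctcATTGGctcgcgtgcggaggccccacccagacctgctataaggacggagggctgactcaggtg
G0s2, chr1:193273189-193273438, strand -: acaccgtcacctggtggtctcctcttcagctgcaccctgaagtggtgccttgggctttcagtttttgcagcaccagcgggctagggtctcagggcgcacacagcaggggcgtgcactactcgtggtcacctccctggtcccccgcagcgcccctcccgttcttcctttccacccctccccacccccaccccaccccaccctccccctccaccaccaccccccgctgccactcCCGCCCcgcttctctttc
Pnpla3, chr15:84167566-84167815, strand +: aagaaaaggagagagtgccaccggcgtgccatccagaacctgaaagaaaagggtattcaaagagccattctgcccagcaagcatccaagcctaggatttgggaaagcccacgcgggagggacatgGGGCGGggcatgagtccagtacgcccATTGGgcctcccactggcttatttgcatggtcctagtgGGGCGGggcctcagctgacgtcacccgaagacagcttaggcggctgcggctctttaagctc

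In Plin3 the 2 GC boxes nearest the start site, 14 and 19 bases before it, overlap each other. Pnpla3 and Pnpla2 each hold 2 GC boxes and G0s2 holds 1, while the AGGTCA match among these 5 sequences is in Plin5, 170 bases before its start site. Over all 32851 RefSeq promoters of this length, GGGCGG was found in 32.7%, CCAAT in 33.8% and AGGTCA in 14.0%, so that these letters are found in many promoters. The E-box CACGTG, present in 6.02% of promoters, and the sterol regulatory element TCACNCCAC, present in 1.05%, were found in none of the 11 promoters held for the member genes outside chromosome 18, and TATAAA, present in 12.4%, was found in Cideb. A match to these letters is a description of the sequence and not a site of binding.

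Levels differed by over 3 orders of magnitude between the genes when expressed per length as TPM (counts divided by gene length and scaled to a common sum). Plin2, the perilipin that coats most droplets of liver cells, was the highest at 270.0 ± 77.0 TPM (SD, n = 20), followed by Cideb at 206.0 ± 26.2 TPM and G0s2 at 180.5 ± 68.2 TPM. Each pair of neighbours in this leading group overlapped, although Plin2 exceeded Cideb in 17 of 20 mice and Cideb exceeded G0s2 in 15 of 20. A gap without overlap separated G0s2 from the next gene, Pnpla2, at 26.3 ± 6.0 TPM. Plin3 at 23.1 ± 4.3 TPM, Plin5 at 18.6 ± 5.6 TPM, Pnpla3 at 12.0 ± 10.0 TPM and Plin4 at 6.55 ± 5.16 TPM came next, each overlapping the gene before it in range. Cidec stood at 0.915 ± 0.446 TPM, and Cidea, the CIDE gene of brown fat, at 0.060 ± 0.071 TPM. Cidea had 0 to 8 counts in a library, which is no more than a handful of reads, so no fold change was computed for it.

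**Figure D1:**
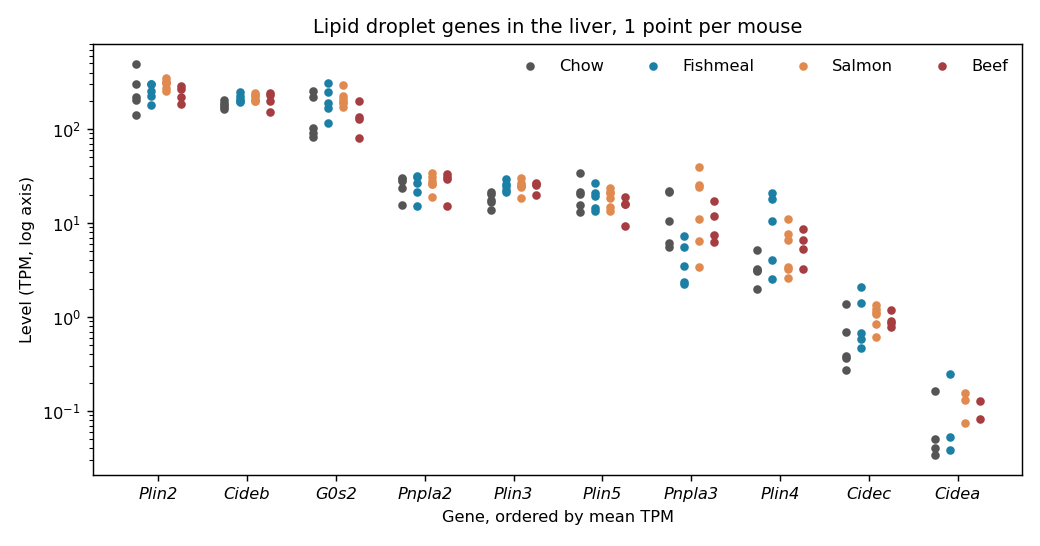
Level of each of the 10 genes in TPM on a log axis, ordered by mean, with 1 point per mouse coloured by diet group; libraries with a value of 0 (Cidea) are not drawn. Plin2, Cideb and G0s2 form the top band with means of 180.5 to 270.0 TPM, and Cidec and Cidea lie below the others at means of 0.915 and 0.060 TPM.

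The 15 HFD-fed mice were compared with the 5 chow-fed mice. By the paper, the chow also differed from the HFDs in its shares of carbohydrate and protein, so that the part of fat alone cannot be told apart. Plin3 was the member whose rise passed the edgeR test, at 1.44-fold, while the RNA of Plin2 differed by 1.01-fold between the groups. The fitted values of 7 members were higher on HFD and those of 2 lower. Plin4 at 2.31-fold, Cidec at 1.66-fold and Cideb at 1.21-fold were higher without passing. With edgeR, 1 of the 9 tested members passed an adjusted p (Benjamini-Hochberg over all genes tested) of 0.05. This is near the share of all protein coding genes tested, 10.3%. The fitted log2 fold changes of the 9 members had a median of 0.28, beside 0.01 over the protein coding genes tested. None of the 9 members had HFD and chow values without overlap, which 1.69% of protein coding genes tested had. With DESeq2, which called 13.6% of protein coding genes, Plin3, Plin4 and Cideb were called.

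Plin3 encodes a perilipin that moves from the cytosol onto young, growing droplets. In chow-fed mice 1, 2, 5, 7 and 10 it stood at 20.9, 27.9, 27.1, 29.9 and 25.1 CPM. In fishmeal-fed mice 12, 13, 14, 16 and 20 it stood at 45.0, 36.7, 32.7, 32.6 and 41.3 CPM. In the 6 salmon-fed mice it ranged from 27.1 to 46.9 CPM with a median of 35.8 CPM (37.0 CPM by column name, without mouse 31 at 27.1 CPM), and in beef-fed mice 32, 35, 39 and 40 it was 29.0, 46.2, 39.8 and 40.3 CPM. All 15 HFD-fed mice lay above the mean of the chow group, and 13 were above the highest chow mouse, the others being mouse 31 and mouse 32. The mean was 37.8 ± 6.1 CPM (SD, n = 15) on HFD and 26.2 ± 3.4 CPM (n = 5) on chow, a log2 fold change of 0.53 (SE 0.12, edgeR adjusted p = 0.0054). The call held with each of the 20 mice left out in turn, at log2 fold changes of 0.46 to 0.57 and adjusted p of 0.0020 to 0.028.

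Plin3 was also higher with each protein source taken alone. The log2 fold change was 0.52 for fishmeal (SE 0.12, edgeR adjusted p = 0.041), 0.50 for salmon (SE 0.13, adjusted p = 0.048) and 0.56 for beef (SE 0.14, adjusted p = 0.067), the last of which did not pass. The groups share their chow mice, and the 3 values lie well within each other's intervals. The fishmeal and chow values did not overlap, as in 6.32% of protein coding genes tested. With mouse 31 counted as beef, the log2 fold change was 0.58 for salmon (edgeR adjusted p = 0.023) and 0.47 for beef (adjusted p = 0.12). With 1 mouse left out in turn, edgeR kept the call for fishmeal alone in 1 of 10 cases and for salmon alone in 1 of 11. The edgeR adjusted p reached up to 0.104 and 0.092. The call for beef was made without mouse 32 (edgeR adjusted p = 0.018). By comparison, edgeR called 3.5% of protein coding genes for fishmeal, 4.36% for salmon (4.57% with mouse 31 as beef) and 2.53% for beef (2.97%).

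A clock score, the mean of 3 genes of the morning arm less the mean of 6 genes of the evening arm on the log2 scale, moved with the diet. It ran from 1.1 to 3.29 in chow-fed mice and from -4.17 to 2.3 in HFD-fed mice, and all 6 genes of the evening arm, Dbp among them, rose on HFD (3 of them without chow mouse 7). With this score as a covariate, 1.73% of protein coding genes were called between HFD and chow and none of the members, and the log2 fold change of Plin3 was 0.28 (SE 0.13, edgeR adjusted p = 0.38). The score and the diet overlap in these mice and their parts cannot be told apart.

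The 2 protein coding genes whose log2 CPM followed that of Plin3 most closely over the 15 HFD-fed mice, of 11560 with a mean of at least 1 CPM, were Glmp (r = 0.945) and Rhog (r = 0.937). Neither passed the test between HFD and chow, with log2 fold changes of 0.19 and 0.13 at edgeR adjusted p of 0.35 and 0.65.

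Plin2, at the highest level of the members, had no difference between HFD and chow that passed the test. In chow-fed mice 1, 2, 5, 7 and 10 it stood at 196, 277, 433, 266 and 684 CPM. The fishmeal-fed mice 12, 13, 14, 16 and 20 had 377, 393, 342, 257 and 395 CPM, the salmon-fed mice 370 to 468 CPM with a median of 408 CPM (401 CPM by column name, without mouse 31 at 446 CPM), and the beef-fed mice 32, 35, 39 and 40 had 293, 303, 392 and 392 CPM. The chow group thus held both the lowest and the highest mouse of the study. The log2 fold change on HFD was 0.02 (95% confidence interval -0.36 to 0.40, edgeR adjusted p = 0.97), an interval that leaves room for changes of either sign.

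Plin4 encodes a large perilipin best known from fat and muscle, and its values spread more than those of any other tested perilipin. Chow-fed mice 1, 2, 5, 7 and 10 had 7.94, 7.01, 8.44, 4.66 and 12.8 CPM. Fishmeal-fed mice 12, 13, 14, 16 and 20 had 12.3, 24.8, 44.2, 6.51 and 49.2 CPM, and the groups overlapped through mice 12 and 16. Salmon-fed mice ran from 6.87 to 26.9 CPM with a median of 12.5 CPM (8.87 CPM by column name, without mouse 31 at 16.2 CPM), and beef-fed mice 32, 35, 39 and 40 had 12.9, 9.55, 21.6 and 17.6 CPM. Of the 15 HFD-fed mice, 9 were above the highest chow mouse. The difference on HFD was 1.21 on the log2 scale (SE 0.43, edgeR adjusted p = 0.077) and did not pass, whereas DESeq2 gave 1.21 with an adjusted p of 0.043. For fishmeal alone it was 1.74 (SE 0.47, edgeR adjusted p = 0.067). With the clock score as a covariate these differences were 0.59 for HFD (edgeR adjusted p = 0.71) and 0.019 for fishmeal (adjusted p = 0.997).

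Plin5, the perilipin of oxidative tissues that tethers droplets to mitochondria, averaged 14.9 ± 3.5 CPM (SD, n = 15) on HFD and 16.9 ± 6.9 CPM (n = 5) on chow. Its log2 fold change was -0.19 (95% confidence interval -0.58 to 0.21, edgeR adjusted p = 0.59), and without chow mouse 10, which had 28.1 CPM, it was 0.06.

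**Figure D2:**
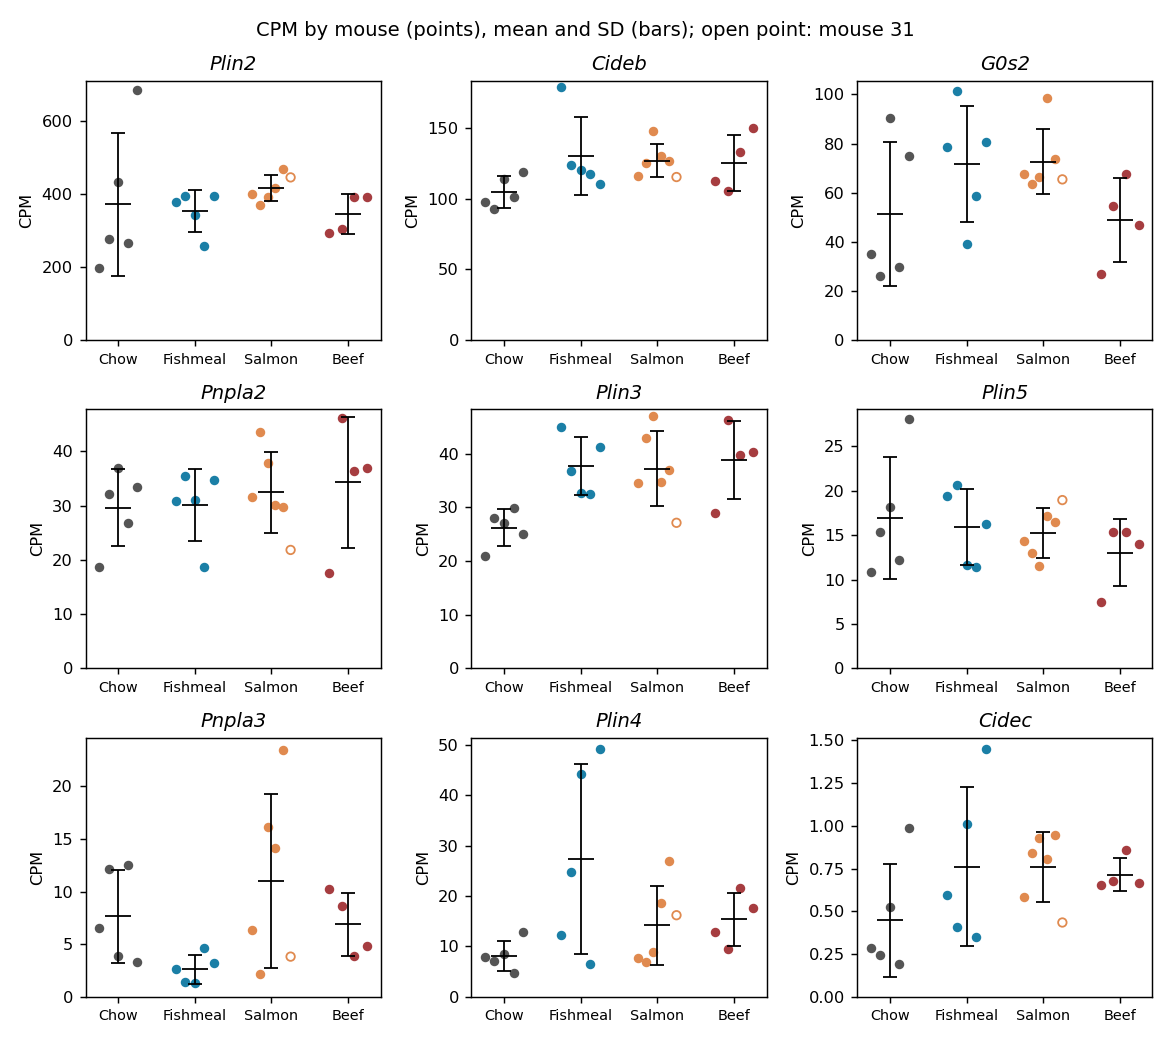
CPM of the 9 tested genes in each mouse (points) by diet group, with the group mean and SD (bars); the open point is mouse 31, labelled salmon and named beef in its column. Plin3 stands at 20.9 to 29.9 CPM on chow and 27.1 to 46.9 CPM on HFD, and Pnpla3 at 1.33 to 4.59 CPM on fishmeal.

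Among the CIDE genes, Cideb acts in loading lipid onto very low density lipoproteins and is the CIDE gene of hepatocytes. In CPM it exceeded the average of the chow group in 15 of 15 mice on HFD without passing the test. Mouse 35 on beef did so narrowly, at 105.5 against 104.9 CPM. In TPM that mouse, whose library had 84.3% of counts on protein coding genes, was at 153.1, below the chow mean of 182.7. How often other genes exceed the chow average in all HFD-fed mice was not counted. Cideb ranged from 92.5 to 119 CPM in the chow-fed mice, with 9 of the 15 HFD-fed mice above the highest of them. It averaged 128 ± 19 CPM (SD, n = 15) on HFD. The log2 fold change was 0.28 (SE 0.10, edgeR adjusted p = 0.079), and DESeq2 gave 0.28 with an adjusted p of 0.0496. Nop9, which overlaps it, had a log2 fold change of -0.07 (edgeR adjusted p = 0.64), at 9.84 ± 1.07 CPM on HFD.

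Cidec (also called Fsp27) fuses droplets into larger ones and is a gene of white fat that appears in fatty liver. It was low, at 0.285, 0.244, 0.527, 0.191 and 0.989 CPM in chow-fed mice 1, 2, 5, 7 and 10. The HFD-fed mice ranged from 0.348 to 1.45 CPM, both ends being fishmeal-fed mice. The log2 fold change of 0.73 (SE 0.33, edgeR adjusted p = 0.17) did not pass, but without chow mouse 10 it was 1.24 with an adjusted p of 0.022. With the clock score as a covariate it was 0.013 (edgeR adjusted p = 0.997).

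The lipase gene Pnpla2 averaged 32.2 ± 8.2 CPM on HFD and 29.6 ± 7.1 CPM on chow (SD), a log2 fold change of 0.12 (95% confidence interval -0.26 to 0.49, edgeR adjusted p = 0.74). Its inhibitor G0s2 stood at 35.1, 26.0, 90.6, 29.9 and 74.9 CPM in chow-fed mice 1, 2, 5, 7 and 10 and at 66.0 ± 20.0 CPM on HFD, a log2 fold change of 0.36 (SE 0.27, edgeR adjusted p = 0.43). Mice 5 and 10 were thus the 2 highest chow mice for G0s2, as they were for Plin2, Plin4, Plin5, Cideb, Cidec and Pnpla2, and the 2 lowest for Pnpla3.

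Chow mouse 10, and for some lists mouse 5, was at the ends of lists of genes that share regulators with the members. Of 18 targets of PPAR-alpha, the receptor that drives fatty acid oxidation in fasting, chow mouse 10 was the highest of the 5 chow mice in 13 and mouse 5 in 4. Of 9 targets of SREBP-1c and ChREBP, the factors of fat synthesis after feeding (Pnpla3 left out), mouse 10 was the lowest in 7 and mouse 5 in 1, mouse 5 also being the highest in 1. In the fishmeal group, mouse 16 was the lowest of 5 mice in 6 of the 9 members and in 13 of the 18 PPAR-alpha targets. Mouse 13 was the highest of that group in 3 members and 10 PPAR-alpha targets and the lowest in 7 of the 9 SREBP-1c and ChREBP targets. In the beef group, mouse 32 was the lowest of 4 mice in 6 of the 9 members and in 11 of the 18 PPAR-alpha targets. In the salmon group by the labels, mice 23 and 31 were each the lowest in 4 members. Of the PPAR-alpha targets, mouse 23 was the lowest in 9, while mouse 31 was the lowest in 1 and the highest in 6. When these mice last ate is not given in the sources used here, and its part in the members' values was not tested.

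**Figure D3:**
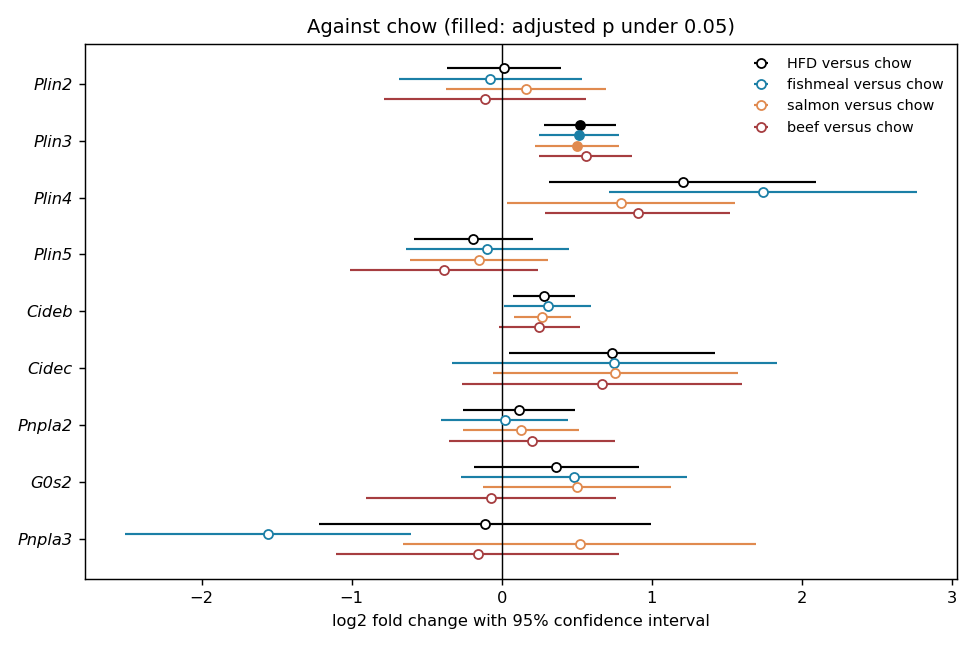
Log2 fold change of the 9 tested genes against chow for all HFD-fed mice and for each protein source, with 95% confidence intervals from edgeR; filled points passed an adjusted p of 0.05. Plin3 is the gene with filled points, at 0.53 for HFD, 0.52 for fishmeal and 0.50 for salmon, and Plin4 has the highest values at 1.21 for HFD and 1.74 for fishmeal.

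Pnpla3 was the member whose level differed most between the protein sources, though no comparison passed the test. Chow-fed mice 1, 2, 5, 7 and 10 had 6.51, 12.1, 3.86, 12.5 and 3.34 CPM. Fishmeal-fed mice 12, 13, 14, 16 and 20 had 2.62, 1.38, 1.33, 4.59 and 3.21 CPM. Salmon-fed mice ran from 2.20 to 23.5 CPM with a median of 10.3 CPM (14.1 CPM by column name, without mouse 31 at 3.82 CPM), and beef-fed mice 32, 35, 39 and 40 had 10.2, 8.61, 3.86 and 4.81 CPM. The fishmeal mice were thus all below the mean of each other group, 4 of the 5 were below the lowest chow mouse, and 7 of the 10 mice on salmon or beef were above the highest fishmeal mouse. The log2 fold change was -1.83 for fishmeal against the other HFDs (SE 0.51, edgeR adjusted p = 0.42), -2.06 against salmon (SE 0.56, adjusted p = 0.43) and -1.40 against beef (SE 0.40, adjusted p = 1.0). Against chow it was -1.56 (SE 0.44, edgeR adjusted p = 0.077), and DESeq2 gave -1.54 with an adjusted p of 0.034. With the clock score as a covariate, the difference from chow was -0.87 (edgeR adjusted p = 0.86). With mouse 31 counted as beef, the values were -2.25 against salmon (edgeR adjusted p = 0.26) and -1.26 against beef (adjusted p = 0.999).

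Between the HFD groups, edgeR and DESeq2 each called 0 of the 9 members in all 4 comparisons. DESeq2 called 47 of 13562 protein coding genes for fishmeal against the other HFDs and 65 of 13469 for fishmeal against salmon. It called 21 of 13437 for fishmeal against beef and 1 of 13439 for salmon against beef. Few genes of any kind were called there by edgeR: 0.162% of protein coding genes for fishmeal against the other HFDs, 0.163% for fishmeal against salmon (0.178% with mouse 31 as beef), 0.00744% for fishmeal against beef (0.03%) and 0.0% for salmon against beef (0.0%). At an unadjusted p under 0.05, Pnpla3 and Plin4 passed for fishmeal against the other HFDs (3.76% of protein coding genes), Pnpla3 against salmon (4.23%) and against beef (1.91%), and Plin2 and G0s2 for salmon against beef (3.5%). With mouse 31 as beef, Plin2 no longer had such a p for salmon against beef, its log2 difference going from 0.27 to 0.16. For beef against chow, where edgeR called 0 members, Plin3 and Plin4 had an unadjusted p under 0.05 (17.9%). By the labels, DESeq2 called Plin3, Plin4 and Pnpla3 for fishmeal against chow (7.46% of protein coding genes), Plin3 and Cideb for salmon (9.28%) and Plin3 and Plin4 for beef (6.79%).

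For Plin4 the difference was 0.91 on the log2 scale for fishmeal against the other HFDs (95% confidence interval 0.09 to 1.73, edgeR adjusted p = 0.997) and 0.96 for fishmeal against salmon (95% confidence interval -0.08 to 1.99, adjusted p = 0.999), the latter being 0.99 with mouse 31 as beef. For Plin3 fishmeal differed from the other HFDs by 0.0047, with a 95% confidence interval of -0.26 to 0.27. G0s2 was higher in all 6 salmon-fed mice than the beef mean, at 72.6 ± 13.2 against 49.0 ± 17.1 CPM, a log2 difference of 0.56 (95% confidence interval 0.10 to 1.03, edgeR adjusted p = 0.9995). With mouse 31 as beef it was 0.50.

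**Figure D4:**
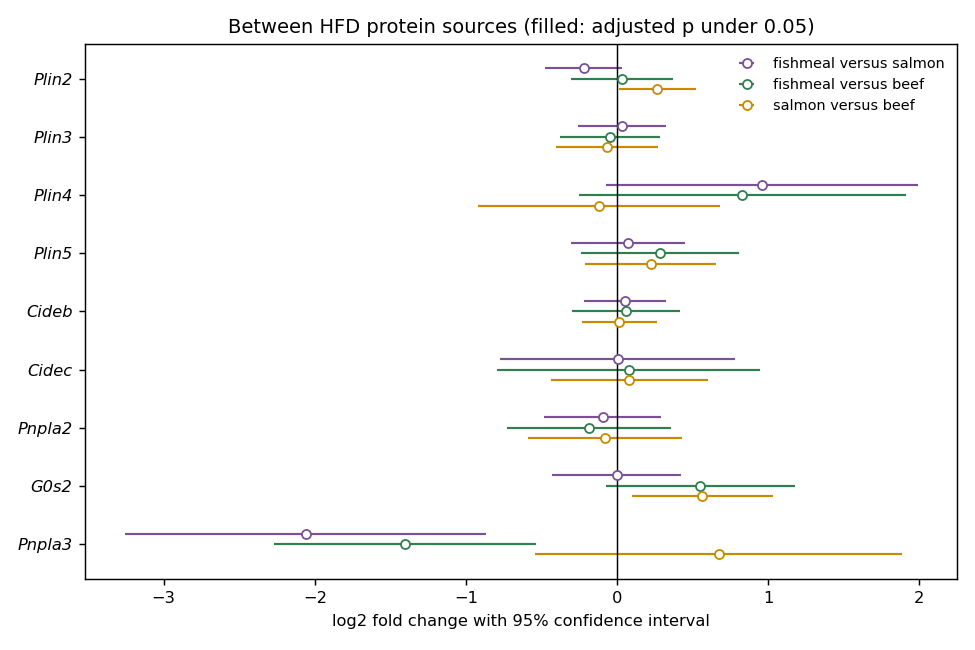
Log2 fold change of the 9 tested genes between the HFD groups, with 95% confidence intervals from edgeR; all points are open because no adjusted p was under 0.05. Pnpla3 lies furthest from 0, at -2.06 for fishmeal against salmon and -1.40 for fishmeal against beef.

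Within the 15 HFD-fed mice, 28 pairs of the 8 members with a mean of at least 1 CPM were correlated on log2 CPM, and 2 pairs passed. How often pairs of other genes pass over the same mice was not tested, and Glmp, outside the members, reached r = 0.945 with Plin3. Plin3 and Pnpla2 had r = 0.821 (two-sided permutation p = 0.00014, adjusted p = 0.0039) and Spearman's rho = 0.786 (permutation p = 0.00081). Plin5 and G0s2 had r = 0.834 (two-sided permutation p = 0.00029, adjusted p = 0.0041) and rho = 0.757 (permutation p = 0.0015). The members of each pair thus ranked the mice in a similar order, mouse 32 on beef being the lowest HFD-fed mouse in Pnpla2, Plin5 and G0s2 and the second lowest in Plin3.

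Without the 2 mice farthest from the median of the first gene, r was 0.703 for Plin3 and Pnpla2 and 0.594 for Plin5 and G0s2. With the group means removed, r was 0.833 and 0.831. Without mouse 32, r was 0.778 for Plin3 and Pnpla2 (permutation, adjusted p = 0.024) and 0.681 for Plin5 and G0s2 (permutation, adjusted p = 0.092), so that the latter pair no longer passed. Against the log2 of the library's total count, r was -0.115 for Plin3, -0.171 for Pnpla2, 0.113 for Plin5 and 0.052 for G0s2. Against the percent of counts on protein coding genes, r was -0.330 for Plin3, -0.371 for Pnpla2, -0.116 for Plin5 and 0.126 for G0s2. Mouse 35, the library with 84.3%, had the highest Pnpla2 and the second highest Plin3 of the HFD-fed mice, and without it r was 0.792 for Plin3 and Pnpla2 (permutation, adjusted p = 0.0073) and 0.849 for Plin5 and G0s2 (permutation, adjusted p = 0.0050). The lipase Pnpla2 and its inhibitor G0s2 had r = 0.370 and rho = 0.007, and the 7 pairs of Pnpla3 had r of -0.244 to 0.126, none of which passed. Over all 28 pairs r ran from -0.244 to 0.834 with a median of 0.226.

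The summed adipocyte markers are close to a reading of Fabp4 alone, at a mean of 8.44 CPM, the next marker being at 0.0405 CPM. None of the 16 relations of the 8 members with this sum or the clock score passed the adjustment. Of these, 4 had a permutation p under 0.05: Plin3 with the adipocyte markers (r = -0.553, adjusted p = 0.13 by permutation) and with the clock score (r = -0.623, adjusted p = 0.12 by permutation), and Pnpla2 likewise (r = -0.694 and -0.584, adjusted p = 0.063 and 0.12 by permutation). By rank, Pnpla2 with the adipocyte markers passed (rho = -0.725, adjusted p = 0.045 by permutation). Plin3 and Pnpla2 thus both had negative values with both scores, and the part of the scores in this pair was not tested.

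**Figure D5:**
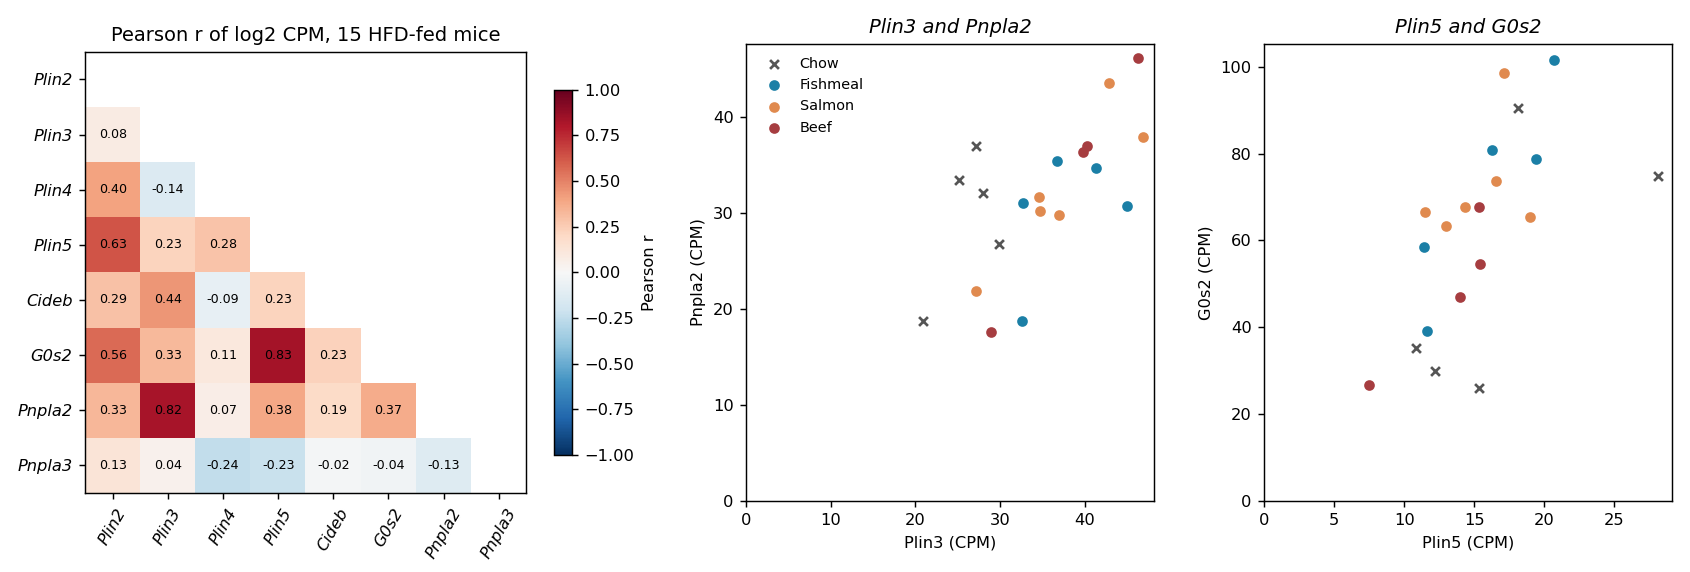
Left, Pearson r of log2 CPM for the 28 pairs of 8 members over the 15 HFD-fed mice; centre and right, CPM of the 2 pairs that passed, 1 point per mouse, with chow-fed mice as crosses that did not enter r. The pairs are Plin3 with Pnpla2 (r = 0.821) and Plin5 with G0s2 (r = 0.834).

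Other genes of the droplet and of its lipid supply were read from lists. Of 16 further droplet proteins, 15 were tested, and Fitm1 and Bscl2 rose on HFD, with log2 fold changes of 0.99 (edgeR adjusted p = 0.017) and 0.38 (adjusted p = 0.046), beside 10.3% of all protein coding genes called in either direction. Without chow mouse 1, 2 or 7, and with the clock score as a covariate, 0 of them were called, and in 13 further alternatives of 30 the count was 1. Fitm1 and Bscl2 (seipin) act where droplets form at the endoplasmic reticulum. The list's median was 0.04, its highest value was that of Fitm1 and its lowest that of Hilpda at -0.17 (edgeR adjusted p = 0.44). Abhd5, the co-activator of the Pnpla2 lipase, had -0.08 (edgeR adjusted p = 0.53). Plin1, the perilipin of white fat, had at most 2 counts in a library and was not tested.

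Of 10 other genes of lipolysis and lipophagy, none passed with edgeR (1 with DESeq2 and 1 without mouse 5, 10, 23 or 27), and their values ran from -0.37 for Ces1d to 0.52 for Mgll, the monoglyceride lipase, on the log2 scale. Of 15 genes of triglyceride and sterol ester synthesis, 3 rose and none fell, beside the same 10.3%. The count was 1 without chow mouse 1, 2 or 7 and 0 with the clock score. Dgat2, which makes triglyceride, rose by 0.56 on the log2 scale (edgeR adjusted p = 0.026), Gpat3 by 0.72 (adjusted p = 0.0070) and Mogat1 by 1.58 (adjusted p = 0.025) from a level of 0.374 CPM on chow. The median of the list was 0.27, and Soat1 was lowest at -0.14.

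The calls between HFD and chow in the next lists stand beside the same 10.3% of protein coding genes. Of 12 regulators of droplet genes, Srebf1, the gene of SREBP-1c, rose by 1.42 on the log2 scale (edgeR adjusted p = 2.2e-05) and Ppara by 0.85 (adjusted p = 0.029). Ppard fell from 25.8 to 10.9 CPM (edgeR adjusted p = 0.0081). The 3 calls became 1 without chow mouse 2 and 1 with the clock score. Of 18 PPAR-alpha targets, Vnn1 rose and Pdk4 fell, at 1.08 and -1.29 (edgeR adjusted p = 0.016 and 0.012), and the median was 0.15. These 2 calls became 1 without chow mouse 1, 2 or 7, 4 without mouse 10 and 0 with the clock score. Of 5 PPAR-gamma targets of fatty liver other than Cidec, 3 were tested, and Cd36 rose by 0.96 (edgeR adjusted p = 0.0039) beside Mogat1, with 1 call left without chow mouse 1, 2 or 7 and with the clock score. Of 9 targets of SREBP-1c and ChREBP other than Pnpla3, none passed with edgeR, with values from -0.57 for Elovl6 to 0.50 for Thrsp. In fishmeal against the other HFDs, where the log2 fold change of Pnpla3 was -1.83, 8 of these 9 had a negative log2 fold change with a median of -0.53, beside 0.01 over the protein coding genes tested, and none passed with edgeR. Fasn, the fatty acid synthase, had -0.76 (edgeR adjusted p = 0.51). In the same comparison Srebf1 had 0.14 and Mlxipl, the gene of ChREBP, -0.17 (both edgeR adjusted p = 0.997). The part of these factors in the values of Pnpla3 was not tested.

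Markers of other cells were read between HFD and chow, where edgeR called 10.3% of protein coding genes tested. Of 6 lymphocyte markers, 5 fell on HFD, and their summed level was 5.44 to 12.5 CPM on chow and 2.09 to 5.43 CPM on HFD. The 5 calls became 3 without chow mouse 2 or 7 and 0 with the clock score. The 6 Kupffer cell markers summed to 159 to 429 CPM on chow and 155 to 313 CPM on HFD with none called by edgeR (1 by DESeq2, and 1 without mouse 5, 13, 35 or 39), the 6 stellate cell markers had median sums of 467 and 432 CPM with none called, and the 6 endothelial markers, of which Clec4g fell (2 were called without mouse 32), summed to 193 to 225 and 158 to 227 CPM. Of 5 cholangiocyte markers Sox9 fell, though 0 were called without chow mouse 1, 2 or 7. Of 4 red blood cell markers Alas2 rose, and the exocrine pancreas markers summed to at most 0.105 CPM. Each of the endothelial, cholangiocyte and red blood cell lists had 0 calls in at least 1 of the 10 alternatives that kept all mice. The 8 adipocyte markers, of which Fabp4 was the one over 1 CPM, summed to 5.39 to 9.13 CPM on chow and 4.78 to 13.9 CPM on HFD. The part of these cells in the members' values was not tested.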

How the data were processed

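Liver RNA from 20 mice was sequenced as stranded mRNA libraries, 1 per mouse. The authors trimmed reads with BBDuk, mapped them with HISAT2 1.2.1, and deposited raw counts per Ensembl gene from featureCounts 1.4.6-p1, the versions being those of the submitters' processing notes. The authors also deposited TPM, in which counts are divided by gene length and scaled to 1 sum in each library. The notes and the paper name a human build for these mouse libraries. Positions here are from GENCODE M21 on GRCm38.

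Groups came from the labels. Each comparison was fitted on its own mice with edgeR 4.0 in R 4.3: genes kept by filterByExpr (minimum count 10), TMM factors, two-sided quasi-likelihood tests, p-values adjusted by Benjamini-Hochberg across every gene kept, and calls at an adjusted p under 0.05. The study used DESeq2; here it (version 1.42) is an alternative, beside other normalisations, filters, fits, limma 3.58 on log2(TPM + 1) and log2(TPM + 0.1), and mice left out in turn. The shares of genes called are over protein coding genes. Correlations used log2 CPM (prior count 2) and 100000 two-sided permutations. Mice fed the same diet differed by more than counting noise in all 41 pairs within groups. The scripts were tested on simulated data.

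The 10 genes and the gene lists were chosen with earlier results of these data known. Named besides the members are listed genes that passed, each list's extreme values, and the 2 genes most like each member that passed. Genes named outside this rule (Nop9, Gm12551, Abhd5, Plin1, Fasn, Mlxipl and Lep) were chosen after their values were seen.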

Additional observations from a re-analysis of the deposited data

Results flagged for a closer look

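Of 36 sets of values, 9 genes in 4 diet groups, 5 had a mouse whose gap to its nearest neighbour took up more of the group's log2 CPM range than Dixon's 95% critical value; chance alone gives about 1 in 20. Mouse 32 on beef had 7.46 CPM of Plin5, the other beef-fed mice 14.0 to 15.4 CPM. Mouse 12 on fishmeal had 179 CPM of Cideb, the others of its group 111 to 124 CPM. Mouse 16 on fishmeal had 18.7 CPM of Pnpla2, the others 30.8 to 35.4 CPM. Mouse 26 on salmon had 98.6 CPM of G0s2, the others 63.4 to 73.7 CPM, and mouse 39 on beef had 0.860 CPM of Cidec, the others 0.654 to 0.679 CPM. Mouse 31, which is beef by its column, had 19.0 CPM of Plin5 and 0.435 CPM of Cidec, both outside the ranges given for the other beef-fed mice. Its G0s2 was 65.4 CPM. The flags of mice 26, 32 and 39 thus rest on the labels. They were not computed again with mouse 31 counted as beef, so that the count of 5 holds for the labels alone. These 5 flags fell on 5 different mice.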

How the results depend on the processing

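The call of Plin3 on HFD was made under all alternatives tried except the clock score as a covariate, with 0 members called there; DESeq2 called 3 members, and leaving out mice gave 1 to 2, the 2 being without mouse 10, when Cidec passed. For fishmeal against chow, 1 member was called, and 3 by DESeq2 and on all genes with a count, 2 in the fit on all 4 groups, and 0 by limma on log2(TPM + 1), limma on log2(TPM + 0.1) and with the clock score. Leaving out mice gave 0 to 3, with 3 without mouse 16. For salmon against chow the count was 1, then 2 by DESeq2 and 0 in the fit on all 4 groups, by limma on either scale and with the clock score, and leaving out mice gave 0 to 1. For beef against chow it was 0, then 2 by DESeq2 and 1 in the fit on all 4 groups, and leaving out mice gave 0 to 1, with 1 without mouse 32. Between HFD groups it was 0 under every alternative tried. The 2 correlated pairs became 1 to 2 with mice left out. They became 4 with group means by the labels removed, when Plin2 with Plin4 (r = 0.730) and with Plin5 (r = 0.701) passed by permutation too. Mice were permuted across groups there, without allowing for the means removed. With the means kept, these 2 pairs had r = 0.400 and 0.629 (permutation, adjusted p = 0.60 and 0.12). Without the 2 mice farthest from the median of Plin2, r was 0.190 and 0.354. The 0 relations with marker scores became 1 by rank, and 0 to 2 with mice left out. The causes were not tested.

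Signs changed for genes that were not called. For Plin2 on HFD, the log2 fold change was -0.0031 in the fit on all 4 groups, -0.034 with the clock score and -0.14 to 0.35 with mice left out. For Pnpla2 it was -0.31 with the clock score and -0.0049 to 0.21 with mice left out. For Plin5 it was -0.31 to 0.064 with mice left out. For Pnpla3 on HFD it was 0.12 with the clock score and -0.38 to 0.13 with mice left out, and for beef against chow 1.98 and -0.43 to 0.084. No paired analysis was possible because each mouse has its own number and the groups share none. Counts of 0 to 8 for Cidea limit it to a statement of level.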
